A study of Mus musculus with 6 samples.

Results

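The 10 genes described here encode surfactant proteins and other products of the lung surface: Sftpa1, Sftpb, Sftpc, Sftpd, Cldn18 and Lyz1 of alveolar epithelium, Scgb1a1, Scgb3a2 and Cyp2f2 of airway secretory cells, and Chil3 of macrophages. They were measured in embryonic brain, where they were chosen from the table of 53801 genes by symbol, and they had been selected on their high counts in Bahd1-KO embryos of this same table. Their levels by genotype are therefore a description, and the calls of the fit over all genes are given only as background. Polyadenylated RNA was sequenced from whole brains of C57BL/6 mouse embryos at day E16.5, 3 Bahd1-KO (Bahd1-/-) and 3 Bahd1-WT (Bahd1+/+). Bahd1-KO embryos lack BAHD1, a heterochromatin-forming scaffold protein, in every tissue of the body, and came from crosses of heterozygous parents. The samples are named biological replicates, but litters are not given, so the spread between them may hold litter effects.

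Pulmonary surfactant is a film of lipid and protein that alveolar type 2 cells secrete to lower surface tension in the air sacs. In the airways, club cells secrete uteroglobin-like proteins and carry cytochrome P450 enzymes that metabolise inhaled compounds. Neither cell type belongs to the brain, and transcription of many of these genes in lung epithelium relies on NKX2-1, FOXA and C/EBP factors, of which NKX2-1 also acts in the ventral forebrain.

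The library labelled Bahd1-KO replicate 3 stood apart and went against its tissue label. The summed level of 10 embryonic brain markers was 295 CPM (counts per 1000000 counts of the library) there, against 7876 to 9020.1 CPM in the other embryos, and genes over ribosomal RNA took 44.7% of its counts, against 0.249 to 0.614%. Dcx, a microtubule protein of migrating neurons, had 1778 counts in it and 188324 to 318227 elsewhere. Rn7sk and Rny1, RNAs without a poly(A) tail, were at 2383 and 119 CPM in that library, against 7.65 to 24.3 and 0.257 to 1.57 CPM elsewhere. A poly(A) preparation is stated for all embryos, and why these RNAs were high in that library was not tested. Library totals were between 61724000 and 91782802 counts, so that 3 counts, the limit that a count of 0 allows, corresponded to 0.0327 to 0.0486 CPM. Bahd1 had 2, 10 and 6 counts in the knockout libraries and 1971, 3102 and 3470 in the wild-type brains, which matches the genotype labels. Counting intervals below cover counting error only, and reads are not independent molecules. Levels are CPM of all counts unless another scale is named. Protein-coding counts, TMM factors or DESeq2 factors, tried after seeing the data for single genes, raised levels of Bahd1-KO replicate 3 relative to the others, and results that this turned are given with both. In bulk RNA, fewer cells of a type and less RNA per cell cannot be told apart.

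The surfactant proteins Sftpa1 and Sftpd are collectins, secreted lectins that bind microbes. Sftpa1 (ENSMUSG00000021789, chromosome 14, 41131782 to 41136452, forward strand, GRCm38) had 5, 103 and 8507 counts in the knockout libraries 1, 2 and 3, and 1, 2 and 6 in the wild-type brains. Counts are listed below in this order of replicates. Sftpd (ENSMUSG00000021795, chromosome 14, 41172214 to 41185149, reverse strand) had 0, 14 and 368 counts in the knockout libraries and 1 in each Bahd1-WT embryo. For both collectins, Bahd1-KO replicate 3 was highest and replicate 2 followed, while replicate 1 was at 0 for Sftpd and at 0.0810 CPM for Sftpa1, against 0.0657 CPM in the highest wild-type brain.

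Sftpb and Sftpc are the small hydrophobic proteins that spread the lipid film. Sftpb (ENSMUSG00000056370, chromosome 6, 72304610 to 72314371, forward strand) had 2, 82 and 4533 counts in the knockout libraries and 12, 10 and 14 in the wild-type brains. Sftpc (ENSMUSG00000022097, chromosome 14, 70520949 to 70524081, reverse strand), whose product within the lung marks alveolar type 2 cells, had 2, 225 and 44670 counts in the knockout libraries and 0, 8 and 11 in the wild-type brains. Replicates 2 and 3 exceeded every wild-type embryo for both genes, whereas Bahd1-KO replicate 1 lay below every wild-type embryo for Sftpb and inside the wild-type range for Sftpc. The group level of Sftpc was 189.6 ± 326 CPM in the libraries labelled Bahd1-KO and 0.0729 ± 0.0641 in wild-type brains (SD, n = 3 each), with an SD above the mean in Bahd1-KO because 1 library carried most of the counts.

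Cldn18 encodes a claudin that seals alveolar epithelium, with a lung and a stomach form made from separate first exons. It (ENSMUSG00000032473, chromosome 9, 99689461 to 99717267, reverse strand) had 0, 33 and 30427 counts in the knockout libraries and 0, 1 and 0 in the wild-type brains. It was thus at 0 in 3 of the 6 embryos, and wild-type brains and knockout library 1 together held a single count. Lyz1 (ENSMUSG00000069515, chromosome 10, 117287797 to 117292868, reverse strand), a lysozyme of Paneth cells and alveolar type 2 cells, had 2, 15 and 538 counts in the knockout libraries and 3, 2 and 1 in the wild-type brains. Of all stretches of 65 bases in Lyz1 transcripts, 8.59% also occur in Lyz2, so its counts are less certain. Lyz2, a related lysozyme, was at 4.64 CPM in Bahd1-KO replicate 2 and 31.6 in replicate 3, against 3.25 to 4.49 CPM in the other embryos. Replicate 2 thus lay only just above the others for Lyz2.

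Scgb1a1, the uteroglobin of club cells, had a different order. It (ENSMUSG00000024653, chromosome 19, 9083636 to 9087958, reverse strand) had 4, 511 and 352 counts in the knockout libraries and 13, 14 and 15 in the wild-type brains. Replicates 2 and 3 stood at 6.68 and 4.46 CPM of all counts, but at 6.82 and 8.34 CPM of protein-coding counts, so that their order depended on the scaling. On every scale tried, Scgb1a1 had the least difference between replicates 2 and 3 of the 10 genes. Cyp2f2 (ENSMUSG00000052974, chromosome 7, 27119909 to 27133660, forward strand), the main cytochrome P450 of mouse club cells, had 3, 107 and 2019 counts in the knockout libraries and 9, 7 and 8 in the wild-type brains. The liver list, a tissue that also expresses Cyp2f2, stood at 10.4 CPM in Bahd1-KO replicate 3 and 43.4 CPM in Bahd1-WT replicate 3, where Cyp2f2 had 8 counts, and at 1.39 to 3.36 CPM in the other embryos, and its part in the Cyp2f2 counts was not tested.

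Scgb3a2, a secretoglobin of developing and adult airways, had 0, 16 and 16285 counts in the knockout libraries and 2, 1 and 0 in the wild-type brains. Its position (ENSMUSG00000038791) is chromosome 18, 43764289 to 43767399, forward strand. Although both are airway secretoglobins, Scgb3a2 and Scgb1a1 sat at opposite ends of the difference between Bahd1-KO replicates 2 and 3. The ratio of Scgb3a2 to Scgb1a1 counts was 0.0313 (95% exact interval 0.0178 to 0.0513) in replicate 2 and 46.3 (41.6 to 51.6) in replicate 3, and 3 against 42 counts gave 0.0714 (0.0142 to 0.224) in the pooled wild-type brains. The intervals of replicate 2 and the wild-type brains overlapped, and that of replicate 3 lay far above both.

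Chil3 (ENSMUSG00000040809, chromosome 3, 106147554 to 106167564, reverse strand), a chitinase-like protein secreted by alveolar macrophages and neutrophils, differed from the other 9 genes in Bahd1-KO replicate 1. It had 15, 18 and 61 counts in the knockout libraries and 3, 0 and 1 in the wild-type brains. At 0.243, 0.235 and 0.773 CPM, replicates 1 and 2 were alike and all Bahd1-KO embryos were above all Bahd1-WT embryos. A list of 8 neutrophil genes summed to 4.86 CPM in replicate 1, 1.90 in replicate 2 and 13.9 in replicate 3, against 1.53 to 1.75 in Bahd1-WT, and their part in the Chil3 counts was not tested. Its close relative Chil4 had 1 count in Bahd1-KO replicate 2 and 0 in the others, and 18.1% of the 65-base stretches of Chil3 are shared with Chil4 or Gm6522.

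**Figure D1:**
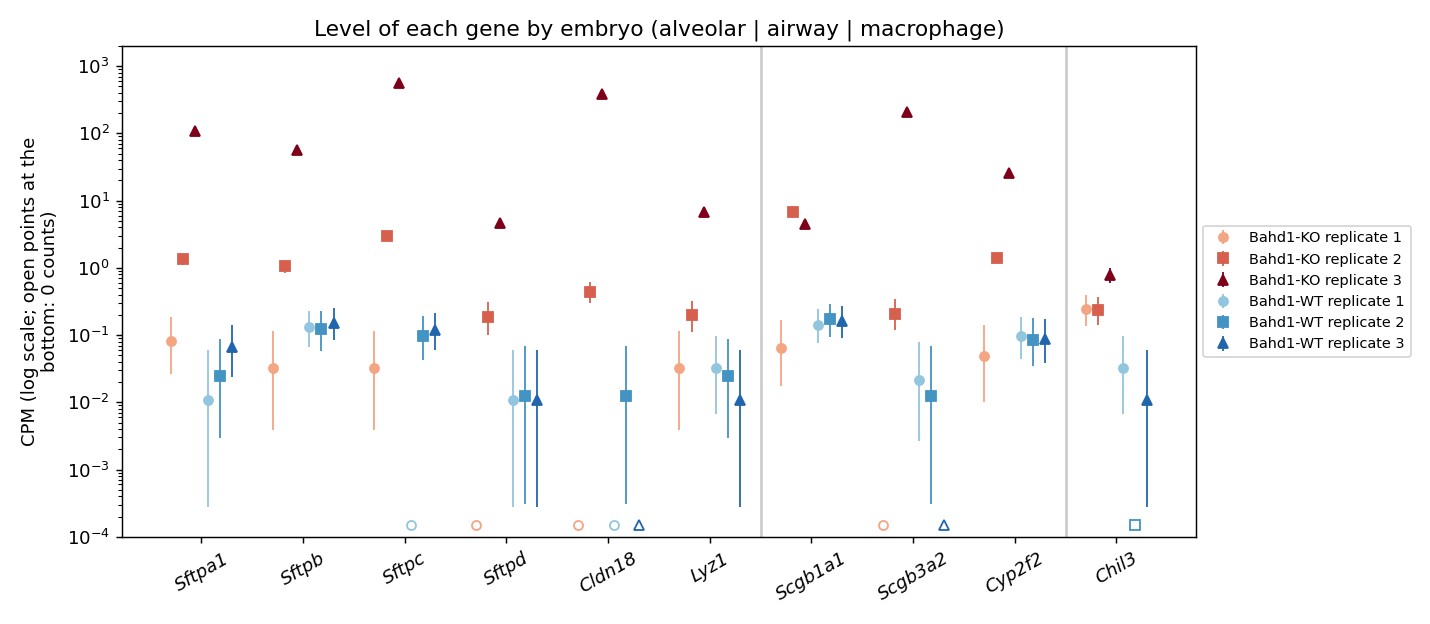
Level of each of the 10 genes in every embryo in CPM (log scale), with exact 95% counting intervals and open symbols at the bottom for 0 counts. On this scale of all counts Bahd1-KO replicate 3 is highest for 9 genes and Bahd1-KO replicate 2 for Scgb1a1, an order that turns with protein-coding counts (8.34 in replicate 3 and 6.82 in replicate 2), and only Chil3 has Bahd1-KO replicate 1 well above the Bahd1-WT embryos.

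The orders of the embryos were counted beside those of all 24739 genes with at least 10 counts in sum. All 10 genes passed this minimum, but only 6 of them had 10 counts in the 4 embryos other than Bahd1-KO replicates 2 and 3. Both of these replicates exceeded the other embryos for 9 of the 10 genes, Chil3 being the exception, against 6.18% of the genes tested. Bahd1-KO replicate 3 was highest for 9 (25.9% of the genes tested) by CPM of all counts and for 10 under each of the 3 other scalings (38.1 to 43.7%), and replicate 2 exceeded Bahd1-KO replicate 1 and every Bahd1-WT embryo for 9 (14.4%). Every Bahd1-KO embryo exceeded every Bahd1-WT embryo for 2, Sftpa1 and Chil3 (3.97%). These orders were what the genes were chosen for, and nothing is read from the counts.

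By edgeR's quasi-likelihood test at an adjusted p of 0.05, 0 of the 10 genes were among the calls, where 0.00404% of all genes were called, namely Bahd1. DESeq2 called 0.0323% of all genes and none of the 10, but withheld an adjusted p for 8 of them. Without Bahd1-KO replicate 3, edgeR called 0.0171% and again none of the 10. The fitted median log2 fold change of the 10 genes was 7.69 with all embryos (0.06 over all genes) and 3.46 without that library (-0.01 over all genes). The fitted value fell from 13.02 to 3.09 for Scgb3a2 and from 15.18 to 5.37 for Cldn18, but for Scgb1a1 only from 4.82 to 4.38. With wild-type counts near 0, fitted values of Cldn18, Scgb3a2 and Sftpd depend on the prior count.

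Summed over the 10 genes, the level was 0.535, 14.7 and 1365 CPM in the knockout libraries, and 0.479, 0.564 and 0.624 CPM in the wild-type brains. Bahd1-KO replicate 2 was 26.5-fold above the pooled wild-type brains (95% exact interval 22.3 to 31.6), and replicate 3 was 2457-fold above them (2091 to 2909) by all counts, or 3871-fold with TMM factors and 4518-fold by protein-coding counts. Bahd1-KO replicate 1 lay within the wild-type range. By gene, replicate 2 exceeded the pooled wild-type level from 7.88-fold for Sftpb (5.27 to 12) to 42.1-fold for Scgb1a1 (30.7 to 59.1), apart from Cldn18, whose 114-fold ratio rests on 1 wild-type count (19.1 to 4647). In replicate 3 the same ratio ran from 28.1-fold for Scgb1a1 (20.4 to 39.7) over 7881-fold for Sftpc (5046 to 13092) to 18197-fold for Scgb3a2 (6226 to 88249.8) on 3 wild-type counts, and the single wild-type count of Cldn18 gave 102000.1-fold (18306 to 4028920.3).

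Between both high libraries, the 10 genes did not share 1 ratio. The level in Bahd1-KO replicate 3 over replicate 2 was 986 for Scgb3a2 (95% exact interval 607 to 1725), 893 for Cldn18 (636 to 1298) and 192 for Sftpc (169 to 220.2). It was 80.0 for Sftpa1 (65.9 to 98.1), 53.5 for Sftpb (43.0 to 67.4), 34.7 for Lyz1 (20.9 to 62.5) and 25.5 for Sftpd (15.0 to 47.0). Cyp2f2 followed at 18.3 (15.0 to 22.4), Chil3 at 3.28 (1.91 to 5.90) and Scgb1a1 at 0.667 (0.581 to 0.766). The Scgb1a1 ratio turned to 1.22 (1.06 to 1.4) by protein-coding counts, 1.08 (0.939 to 1.24) with TMM and 1.14 (0.990 to 1.31) with DESeq2 factors. A change of scaling moves all 10 ratios by one factor and leaves their order. The intervals of Scgb3a2 and Cldn18 overlapped, as did those of neighbours from Sftpa1 down to Cyp2f2, whereas Sftpc, Chil3 and Scgb1a1 stood apart from their neighbours. The airway genes thus held the highest, the eighth and the lowest place, and the 6 alveolar genes the places from the second to the seventh.

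**Figure D2:**
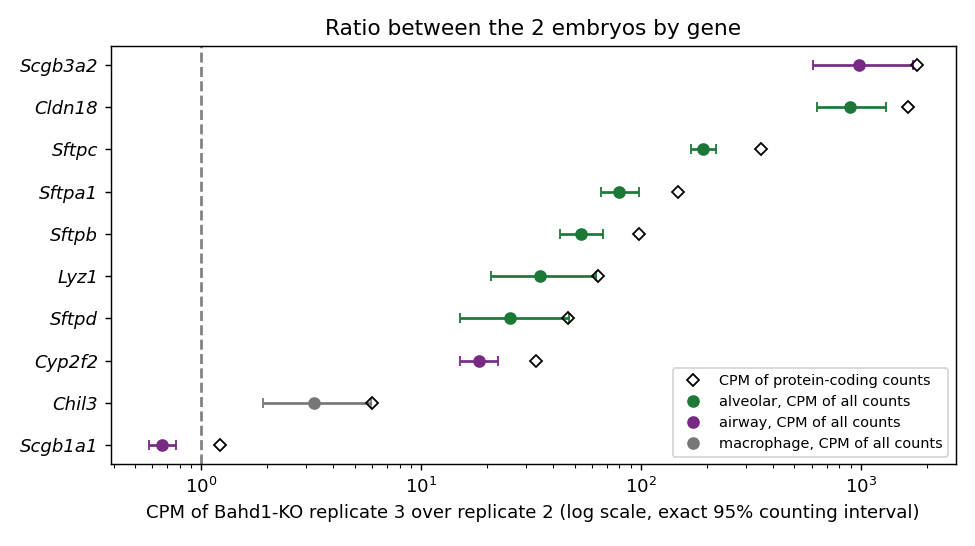
Ratio of CPM in Bahd1-KO replicate 3 to that in Bahd1-KO replicate 2 for each gene (log scale), with exact 95% counting intervals, colours for alveolar, airway and macrophage genes and open diamonds for CPM of protein-coding counts. Scgb3a2 lies at 986 and Scgb1a1 at 0.667, left of the dashed line at equal levels, or at 1.22, right of it, by protein-coding counts, and the airway genes span the whole range on both scales.

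The alveolar and airway genes were then set against each other within each library, where total depth and ribosomal RNA cancel. Alveolar genes held 472 and airway genes 634 counts in Bahd1-KO replicate 2 (42.7%, exact interval 39.7 to 45.7%) and 82.7% in replicate 3 (82.5 to 82.9%). The share was 61.1% in Bahd1-KO replicate 1 (35.7 to 82.7%) and 41.5, 52.2 and 58.9% in Bahd1-WT replicates 1, 2 and 3. On the log2 scale, with 0.5 added to each sum, the alveolar to airway ratio was -0.43 in Bahd1-KO replicate 2 and 2.25 in replicate 3, a difference of 2.68 (2.5 to 2.86). The wild-type brains gave -0.49 to 0.51, a range that held replicate 2 and not replicate 3. The difference depended on the airway genes taken: without Scgb1a1 the ratios were 1.94 and 2.28, and the difference was 0.35 (0.04 to 0.63). Scgb3a2 held 16 of the 634 airway counts in replicate 2 and 16285 of 18656 in replicate 3. Leaving out Scgb3a2 was not tried. Without Sftpc the difference was 2.61.

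Shares per exon length put the genes on one scale. In Bahd1-KO replicate 2, Scgb1a1 made up 72.7% of the summed length-scaled level of the 10 genes, Sftpc 14.7% and Cyp2f2 3.58%. In replicate 3, Sftpc made up 56.7%, Scgb3a2 24.3%, Cldn18 8.97% and Scgb1a1 0.971%. In the pooled wild-type brains, with 147 counts in all, Scgb1a1 again led with 58.1%, followed by Sftpc with 12.1% and Sftpb with 12%. Among 53706 genes ranked by the length-scaled level, Sftpc was the 16th and Scgb3a2 the 29th in replicate 3, against places 9957 and 16190 in replicate 2, where Scgb1a1 was highest of the 10 at place 3632.

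**Figure D3:**
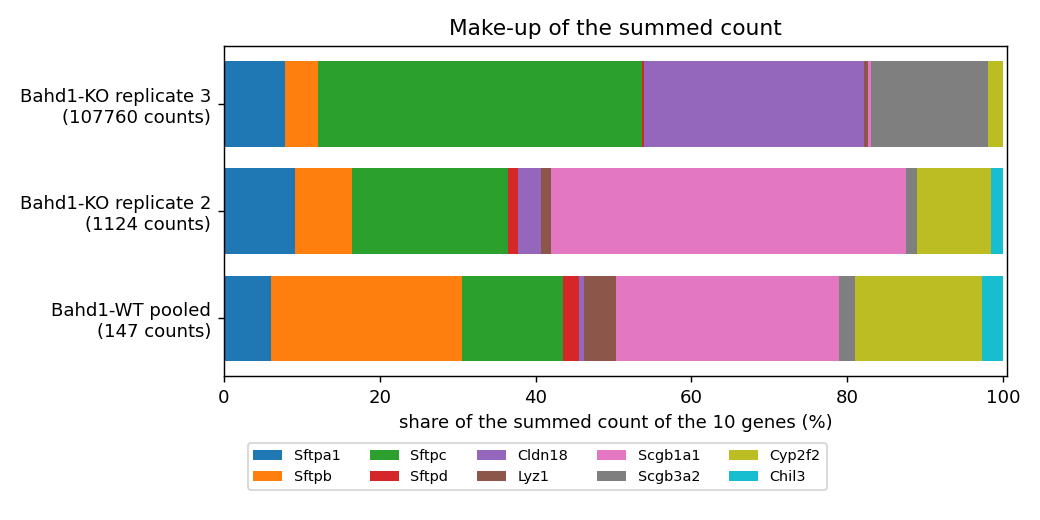
Share of each gene in the summed count of the 10 genes, as stacked bars for Bahd1-KO replicate 3, Bahd1-KO replicate 2 and the pooled Bahd1-WT embryos. Sftpc, Cldn18 and Scgb3a2 fill most of the bar of replicate 3, whereas Scgb1a1 holds 45.5% of the counts in replicate 2 and 28.6% in the wild-type embryos.

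Ratios of pairs of genes within a library differed between replicates 2 and 3 as well, also for pairs within the alveolar or the airway genes. There were 0.440 Sftpc counts per Scgb1a1 count in Bahd1-KO replicate 2 (0.375 to 0.516) and 0.452 in the pooled wild-type brains (0.248 to 0.795), but 127 in replicate 3 (114 to 141). Sftpc to Sftpb was 2.74 in replicate 2 (2.12 to 3.58), 9.85 in replicate 3 (9.56 to 10.2) and 0.528 in the wild-type brains (0.286 to 0.945), so that here replicate 2 also lay above the wild-type brains. Scgb1a1 to Cyp2f2 was 4.78 in replicate 2 (3.87 to 5.94), 0.174 in replicate 3 (0.155 to 0.195) and 1.75 in the wild-type brains (1.04 to 3.02). The interval of replicate 2 thus overlapped that of the wild-type brains for the first pair and not for the other two.

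The start regions of these genes were examined for the letters that NKX2-1, FOXA and C/EBP factors are known to bind, since the counts of such factors are set beside those of the 10 genes further on. RefSeq promoters on GRCm38.p6 were matched by symbol for 6 of the 10 genes, in 7 windows. The 250 bases before each start are shown for 3 alveolar genes and the 1 airway gene with an entry, whose ratios above run from 893 for Cldn18 to 18.3 for Cyp2f2. Capitals mark matches on either strand. For NKX2-1 the letters searched were CTCAAG. The overlapping letters CAAGTG of its known site were searched as well. For FOXA factors they were TGTTTAC. The variant TGTTTGC was added. For C/EBP they were TTGCNNAA. A TATA box was read as TATAAA.
Sftpa1 (chr14:41131538-41131787, forward strand): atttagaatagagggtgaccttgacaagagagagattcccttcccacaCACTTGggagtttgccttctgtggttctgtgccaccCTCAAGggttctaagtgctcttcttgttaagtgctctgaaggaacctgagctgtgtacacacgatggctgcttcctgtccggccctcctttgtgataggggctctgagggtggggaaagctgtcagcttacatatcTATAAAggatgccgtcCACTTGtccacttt
Sftpb (chr6:72304360-72304609, forward strand): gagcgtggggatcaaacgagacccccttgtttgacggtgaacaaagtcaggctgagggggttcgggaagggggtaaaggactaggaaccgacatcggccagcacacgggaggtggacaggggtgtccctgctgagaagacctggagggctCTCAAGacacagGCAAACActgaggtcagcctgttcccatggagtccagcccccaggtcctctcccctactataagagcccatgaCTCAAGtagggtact
Cldn18, start site 1 (chr9:99717268-99717517, reverse strand): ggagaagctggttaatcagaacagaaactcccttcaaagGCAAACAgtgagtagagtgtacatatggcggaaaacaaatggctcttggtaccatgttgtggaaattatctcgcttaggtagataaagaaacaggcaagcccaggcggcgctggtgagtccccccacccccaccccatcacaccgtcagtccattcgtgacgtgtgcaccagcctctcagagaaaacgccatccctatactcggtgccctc
Cldn18, start site 2 (chr9:99710064-99710313, reverse strand): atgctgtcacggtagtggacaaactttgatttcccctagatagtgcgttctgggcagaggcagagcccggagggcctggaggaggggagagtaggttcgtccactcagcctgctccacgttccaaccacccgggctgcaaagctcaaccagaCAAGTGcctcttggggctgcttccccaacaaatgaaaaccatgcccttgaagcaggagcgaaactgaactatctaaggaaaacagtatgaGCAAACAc
Cyp2f2 (chr7:27119705-27119954, forward strand): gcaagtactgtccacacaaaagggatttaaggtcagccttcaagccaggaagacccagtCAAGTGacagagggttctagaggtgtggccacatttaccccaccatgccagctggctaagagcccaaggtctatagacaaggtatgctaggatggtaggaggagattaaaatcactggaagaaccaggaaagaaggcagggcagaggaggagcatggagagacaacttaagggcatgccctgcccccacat

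The Sftpa1 window held CTCAAG at -166 to -161 from the start, CAAGTG at -202 to -197 and at -14 to -9, and a TATAAA at -30 to -25. Positions count back from the start of the promoter entry. For Sftpa1 and Cyp2f2 the windows end at 41131787 and 27119954, past the gene starts of 41131782 and 27119909 given above. Sftpb held CTCAAG at -100 to -95 and -15 to -10 and TGTTTGC at -88 to -82. Cldn18 held TGTTTGC at -211 to -205 of the first start site, and CAAGTG at -98 to -93 and TGTTTGC at -8 to -2 of the second. Which of these start sites makes the lung form and which the stomach form was not determined. Cyp2f2 held CAAGTG at -191 to -186 and no other motif searched. Of the windows not shown, Lyz1 held CAAGTG at -129 to -124 and the only match to TTGCNNAA, at -209 to -202, and Chil3 held TGTTTGC at -66 to -60. Among 32851 promoter windows of this length, CTCAAG occurred in 13.3%, CAAGTG in 11.6%, TGTTTGC in 4.30%, TGTTTAC in 3.17%, TTGCNNAA in 9.56% and TATAAA in 12.4%. These are matches of letters, not measured binding.

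Transcripts of the factors themselves were highest in 1 library. Nkx2-1 had 1540, 1329 and 9739 counts in the knockout libraries and 1472, 1172 and 2250 in the wild-type brains. Tbx4, a T-box factor of lung mesenchyme and hindlimb, had 23, 32 and 4247 counts in the knockout libraries and 37, 54 and 43 in the wild-type brains. For Klf5 and Foxa1, too, Bahd1-KO replicate 3 was highest, at 68.5 and 42.2 CPM against 8.17 to 11.2 and 5.44 to 6.49 CPM. All 12 lung transcription factors listed were highest in Bahd1-KO replicate 3 (25.9% of the genes tested). Their summed level was 535 CPM there and 37.7 to 48.1 CPM in the other embryos, with replicate 2 at 41.9. As a sum, the factors of Bahd1-KO replicate 2 thus lay inside the range of the other embryos. By gene, replicate 2 exceeded Bahd1-KO replicate 1 and all wild-type brains for 5 of the 12 (14.4% of the genes tested). With TMM or DESeq2 scaling it did so for 4 of the 12. For the 10 surfactant and secretory genes the number was 9, but they had been selected on these counts, so no comparison is drawn.

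Other lung genes were described by lists of cell types. Together these lists held 76 genes. Of the 71 tested, 68 had a higher fitted level in Bahd1-KO (53.8% of all genes tested did) and 0 passed the adjusted threshold in edgeR. At an unadjusted p under 0.05 there were 35 (4.67% of all genes), with a median log2 fold change of 2.57 against 0.06 over all genes. Without Bahd1-KO replicate 3, 42 of 67 were higher (49.2% of all genes), 0 passed in edgeR, 3 had an unadjusted p under 0.05 (1.48% of all genes) and the median was 0.17. The count at an unadjusted p also changed with other embryos. Leaving out 1 Bahd1-WT embryo gave 3 to 5 such genes in edgeR (154 to 293 over all genes). Without Bahd1-KO replicate 1 or 2 there were 53 or 49 (2451 or 4878 over all genes).

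Genes of alveolar type 2 cells other than the 6 above did not differ by 1 ratio. Slc34a2, a phosphate transporter of these cells, had 7, 91 and 18814 counts in the knockout libraries and 24, 17 and 23 in the wild-type brains. Ctsh, a protease that processes surfactant protein, was at 9.70, 10.1 and 270.5 CPM in the knockout libraries and 9.10 to 9.54 in the wild-type brains. Lpcat1, a lipid acyltransferase, was at 114 CPM of all counts in Bahd1-KO replicate 3, inside the range of the other embryos (89.3 to 117), but at 213 CPM of protein-coding counts, above it (91.3 to 119). Abca3, a lipid transporter, was at 67.3 CPM of all counts (52.0 to 113 in the others) and at 126 CPM of protein-coding counts (53.1 to 115), and with TMM factors it lay inside the range. Both differed far less between libraries than Slc34a2 on either scale. Replicate 2 exceeded Bahd1-KO replicate 1 and all wild-type brains for 7 of these 12 genes (14.4% of the genes tested), or 6 with TMM or DESeq2 factors.

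In alveolar type 1 cells, the flat cells of gas exchange, 9 of 10 genes were highest in Bahd1-KO replicate 3 by all counts (25.9% of the genes tested). Under the other scalings 10 were (38.1 to 43.7%). The list summed to 1329 CPM in that library and 166 to 194 in the other embryos, with replicate 2 at 193. Cav1, a caveolar protein also found in endothelium, was at 414 CPM in replicate 3 and 34.7 to 62.1 elsewhere. Akap5 and Emp2 reached 378 and 138 CPM in that library. Pdpn, the gene that depended on the scaling, had 34.4 CPM of all counts in replicate 3 and 32.2 to 45.6 in the others, and 64.4 against 32.8 to 46.4 by protein-coding counts.

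The other airway secretory genes were higher in both libraries as a sum, at 3.77 CPM in Bahd1-KO replicate 2 and 90.7 in replicate 3, against 1.57 to 2.0 in the other embryos. Cbr2, a carbonyl reductase of club cells, had 4, 102 and 1615 counts in the knockout libraries and 4, 25 and 31 in the wild-type brains. Muc5b, an airway mucin, had 0, 6 and 932 counts in the knockout libraries and 0, 0 and 1 in the wild-type brains, and Hp, haptoglobin, 4, 23 and 799 against 3, 6 and 9. Cckar was at 19 CPM in replicate 3 and 0.981 in replicate 2, against 0.723 to 0.887. Replicate 2 exceeded Bahd1-KO replicate 1 and all wild-type brains for 8 of these 12 genes (14.4% of the genes tested).

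Not all ciliated and macrophage genes were highest in Bahd1-KO replicate 3. Of 10 ciliated genes, 7 were highest in that library by all counts (25.9% of the genes tested). Under each other scaling 9 were (38.1 to 43.7%). The ciliated list summed to 110.2 CPM there and 27.2 to 45.4 in the other embryos. Sec14l3 was at 60.1 CPM in Bahd1-KO replicate 3 and 1.41 to 2.93 elsewhere. Foxj1, the regulator of motile cilia that choroid plexus and ependyma also express, was at 8.83 CPM there and up to 17.4 in Bahd1-WT. It stayed below the highest wild-type brain under every scaling. Of the alveolar macrophage list, 9 of 10 symbols were matched, and 8 genes were highest in Bahd1-KO replicate 3 (25.9% of the genes tested). Their sum was 15.8 CPM in that library, 1.03 in replicate 2 and 0.564 to 0.942 in the others. Fabp4 had 588 counts in replicate 3 and 6 to 14 elsewhere, and Ear2 had 219 and 0 to 5. Among mesenchymal and endothelial genes, Npnt was at 304 CPM and Calcrl at 134 in replicate 3, against 35.3 to 55.0 and 11.5 to 20.2 in the other embryos.

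**Figure D4:**
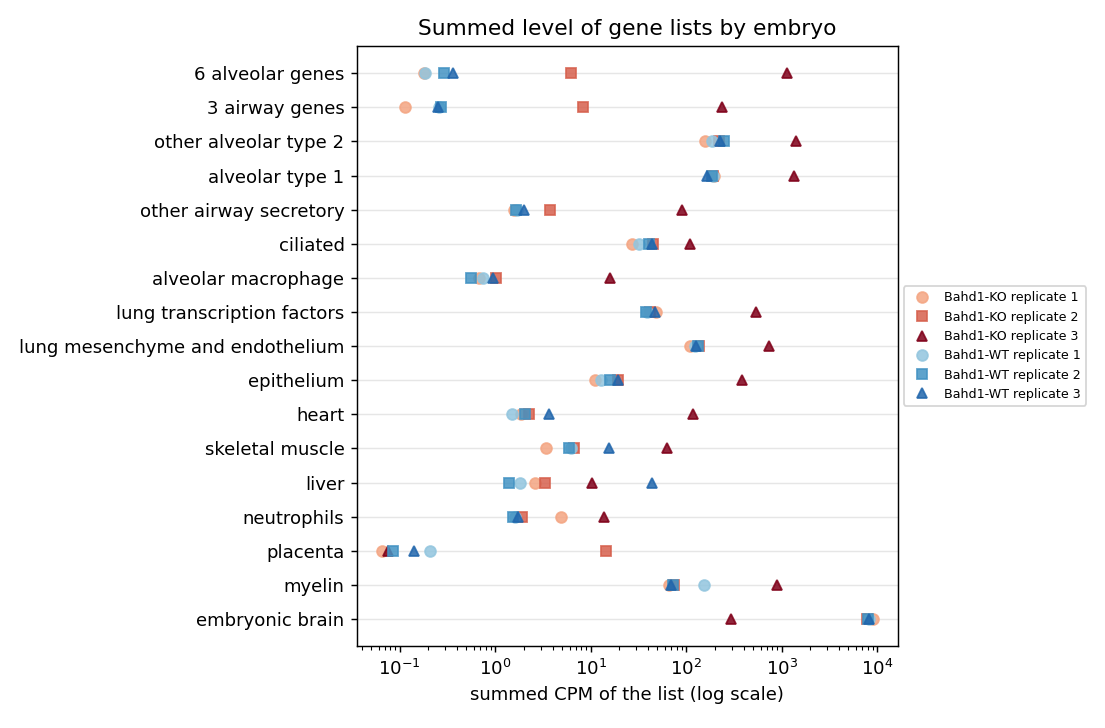
Summed level of gene lists in each embryo in CPM (log scale). Bahd1-KO replicate 3 lies to the right for all lung lists and far to the left for embryonic brain, whereas Bahd1-KO replicate 2 stands well apart from the wild-type points for the 6 alveolar, the 3 airway, the other airway secretory and the placenta lists and lies beside them for alveolar type 1 (193 CPM) and lung transcription factors (41.9 CPM).

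Markers of other tissues differed between both libraries. In Bahd1-KO replicate 3, the 10 heart genes summed to 118 CPM (1.49 to 3.70 elsewhere), the 12 epithelial genes to 388 (11.2 to 19.5) and the 8 myelin genes to 896 (66.8 to 153). In Bahd1-KO replicate 2, 8 placental genes summed to 14.4 CPM against 0.0648 to 0.207 in the others, led by Psg21 with 250 counts and Prl3b1 with 229, and Prl2c2 was at 0 in every embryo. The stomach list, a tissue that also makes Cldn18, reached 5.87 CPM in replicate 3 and 0.795 to 1.96 elsewhere, with Tff1 and Atp4b at 0 in every embryo. Pgc, the pepsinogen C gene, had 253 counts in replicate 3 and 0 to 2 elsewhere, and alone gave 3.20 of the 5.87 CPM. Atp4a of the same list went the other way, at 7 counts in replicate 3 and 59 to 83 elsewhere. The list of intestine and Paneth cells, which also make Lyz1, was at 5.75 CPM in replicate 3 and 2.52 to 4.0 elsewhere, with Itln1 at 0. Nasal and olfactory genes, from an epithelium that also expresses Cyp2f2, stood at 2.43 CPM in replicate 3, 1.70 in replicate 2 and 1.39 to 1.79 in the others. Obp2a, Cyp2g1 and Bpifb9a were at 0. Cyp2a5 of this list went the other way, at 4 counts in replicate 3 and 18 to 66 elsewhere. Replicate 3 was highest for 5 of 11 stomach, 2 of 11 intestine and 4 of 11 nasal genes (25.9% of the genes tested). The part of these tissues in the levels of the 10 genes was not tested.

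The genes with the most similar pattern were found by the Euclidean distance of centred log2(CPM + 0.05) over the 6 embryos, among 17908 other genes with at least 100 counts. Nearest to the mean of the alveolar genes were Slc34a2 (distance 1.13), Gm43085 (1.53), Cxcl15 (1.56), Fmo2 (1.88) and Hoxa5 (1.96). Nearest to the mean of the airway genes were Hoxa5 (1.55), Hoxb5 (1.69), Scnn1g (1.94), Hoxb4 (2.12) and Muc5b (2.17). Cxcl15, a chemokine of lung epithelium, had 2, 33 and 10251 counts in the knockout libraries and 0, 1 and 1 in the wild-type brains, and Gm43085 is annotated just past its end on the same strand. Hoxa5, a homeobox gene of trunk and lung mesenchyme, had 1, 37 and 1825 counts in the knockout libraries and 10, 0 and 6 in the wild-type brains.

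Among the 10 genes themselves, Cyp2f2 lay 0.37 from the airway mean, to which it contributes, and Sftpb at 1.09 was closer to that mean than Scgb1a1 at 3.69 or Scgb3a2 at 3.95. Scgb3a2 was nearer to the alveolar mean, at 2.52, and Scgb1a1 farther, at 5.20. Chil3 lay farthest from the alveolar mean of the 10, at 6.09.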

How the data were processed

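RNA-seq was analysed in 6 libraries labelled as embryonic brain, grouped by the sample titles. The deposited values were raw counts per gene that the authors obtained, per the study's methods and the submitters' processing notes, from stranded poly(A) libraries of 65-base single reads, trimmed with cutadapt 1.11, aligned to GRCm38 and counted with featureCounts 1.4.6-p3 over exons. STAR 2.5.0a and TopHat2 are both named, and which aligner made the table is not stated. Counts carried no normalization, and reads of near-identical genes could be split or lost.

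CPM were counts per 1000000 counts of the library, ribosomal RNA genes included, and length-scaled levels used GENCODE M21 exon lengths. Genes with at least 10 counts in sum were fitted with edgeR 4.0.16 (R 4.3.3; TMM factors, quasi-likelihood test, genotype as single term, two-sided, Benjamini-Hochberg adjustment over all genes, threshold 0.05). DESeq2 1.42.0 was an alternative. Intervals were exact 95% Poisson or binomial.

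The 10 genes and all lists were chosen with earlier results of these data known. Of lung lists, the 4 genes with most counts were named, of other tissues at most 2 and markers at 0, and the 5 nearest genes per profile. Chil4 was named after its values were seen. Alternatives are given in the closing section.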

Additional observations from a re-analysis of the deposited data

How the results depend on the processing

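In all, 16 results were recomputed in 88 comparisons, of which 46 stayed within the limits set for the original value. The 3 reversed ones were the Scgb1a1 ratio of Bahd1-KO replicate 3 to replicate 2, which was 0.667 by all counts, 1.22 by protein-coding counts, 1.08 with TMM and 1.14 with DESeq2 factors, all 3 tried after seeing the data. DESeq2 called 8 genes in place of 1, the replicate block 0 (517 at an unadjusted p under 0.05), and leaving out 1 embryo 0 to 4, with 4 without Bahd1-KO replicate 3. Also chosen after seeing the data, DESeq2 leaving out that library called 11, and the replicate block leaving it out 16, Sftpc among them, which had been selected on these counts. Whether equal replicate numbers pair the embryos was not settled. Embryos of equal number, each set against the average of its own genotype, correlated at 0.12, 0.18 and -0.10. The Bahd1-KO average includes replicate 3, which stood apart, so these values cannot show a shared litter or its absence. The 10 genes in Bahd1-KO replicate 3 were 2457-fold above Bahd1-WT by total counts, 4518-fold with protein-coding counts, 3871-fold with TMM, 4013-fold with DESeq2 factors and 1652-fold without Sftpc. For Bahd1-KO replicate 2 the alternatives stayed within 24.3 to 28.3. The alveolar to airway difference of 2.68 was 3.30 per kb, 2.02 with mean log2 counts, 8.17 for Sftpc against Scgb1a1, 0.35 with Scgb1a1 left out and 2.22 with Lyz1 and Cldn18 left out. The lung lists had 0 calls under every alternative run for them, which did not include DESeq2 or filterByExpr. Their median log2 fold change was 0.17 to 3.10 when 1 embryo was left out (0.17 without Bahd1-KO replicate 3) and 0.15 with the replicate block leaving out that library. The cause of these shifts was not tested. With filterByExpr, 3 of the 10 genes were left. Low counts in Bahd1-KO replicate 1 and Bahd1-WT limit every ratio to them.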
